A study of Mus musculus with 12 samples.

Results

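The nuclear genes for the subunits of the mitochondrial respiratory chain and ATP synthase were examined in the nucleus pulposus of mice that had lost Opa1. Members were chosen by gene symbol: the numbered Nduf genes of complex I, Sdha to Sdhd of complex II, the Uqcr genes and Cyc1 of complex III, the Cox5 to Cox8 genes of complex IV, the Atp5 genes of complex V, and Cycs. Ndufa4, Cox7a1, Cox7a2, Cox7a2l and pseudogenes were left out by that rule, and no Cox4 gene is matched by it. The rule found 80 of the 32285 genes in the count table, of which 36 belong to complex I, 4 to complex II, 9 to complex III, 13 to complex IV and 17 to complex V. After a filter on low counts 76 members were tested. The other 4 were genes for alternative forms of complex IV subunits: Cox8c had no read in any library, Cox6a2 and Cox7b2 had 1 read each in all, and Cox6b2 had 110.

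Complexes I to IV pass electrons from NADH and succinate to oxygen, and complexes I, III and IV pump protons across the inner mitochondrial membrane as they do so. Cytochrome c, the product of Cycs, carries electrons from complex III to complex IV, and ATP synthase (complex V) uses the proton gradient to make ATP. Except for complex II, each complex is built from subunits made in the cytosol from nuclear genes and from a few made inside the organelle from mitochondrial DNA. Opa1 is the GTPase that fuses inner membranes and shapes the cristae, the folds in which these complexes sit. The nucleus pulposus is the soft centre of the spinal disc, whose cells live with little oxygen and are known for a mostly glycolytic metabolism.

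RNA was sequenced from the nucleus pulposus of tail (caudal) discs, 1 mouse per library, in 6 WT and 6 Opa1cKO mice that were all 12 months old and on a C57BL/6-129/SvEv background. In Opa1cKO mice the tamoxifen-activated AcanCre, a Cre recombinase driven from the aggrecan gene, deleted Opa1 at 3 months of age, 9 months before collection. Mice of both genotypes received tamoxifen at 100 mg/kg on 3 days. Cre acts in aggrecan-expressing cells, so RNA of the dissected tissue pools deleted and undeleted cells. Library totals ran from 37268242 to 56618266 counts. Opa1 itself (chr16:29579334-29654884, plus strand, mm10) stood at 69.3 to 118 CPM (counts scaled by library total and TMM factor) in WT and 30.2 to 47.7 in Opa1cKO, so every library matched its genotype label. Labelled sex did not match in 4 of the 12 libraries: WT 4 is labelled female but held Y-linked reads and almost no Xist, while WT 5, WT 6 and Opa1cKO 4 are labelled male but held Xist at the level of females. By reads WT had 5 females and 1 male, and Opa1cKO 3 and 3. The counts and medians by complex are also given without them.

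The tissue label was checked against 10 nucleus pulposus markers, whose summed TPM (the authors' transcript share, scaled for gene length) was 67612 to 81820 in WT and 59121 to 86953 in Opa1cKO. The largest part of that sum was Car3, at 41241 to 51878 TPM in WT and 33296 to 61469 in Opa1cKO. The marker T stood at 4916 to 5898 and 5071 to 6524 TPM, and Shh, the lowest, at 0.624 to 2.04 and 0.298 to 3.14. None of the 10 markers was called. For skeletal muscle, a tissue very rich in respiratory chain RNA, 12 marker genes were summed. The sums were 5.90 to 66.8 TPM in WT and 6.92 to 62.0 in Opa1cKO. The highest of these genes was Acta1, at 1.41 to 22.6 TPM in WT and 1.68 to 14.7 in Opa1cKO. The lowest was Myh4, at 0 to 0.134 and 0 to 0.319 TPM. The 6 adipocyte markers summed to at most 1.65 TPM in WT and 4.37 in Opa1cKO. Of 6 erythroid markers 2 were found in the TPM table, and these summed to at most 4.06 and 3.22 TPM. Of 6 macrophage markers, which summed to 122 to 212 and 169 to 217 TPM, Cd68 was called higher and Csf1r and Cd163 lower, while Adgre1, C1qa and C1qb lay below 1 TPM in every library. The 6 markers of annulus fibrosus and tendon summed to 122 to 273 and 184 to 391 TPM. The highest was Col1a1, at 92.3 to 225 and 151 to 346 TPM. Of the 6 only 4 were tested, and none was called. The part that such cells play in the values below was not tested.

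Promoter sequence from RefSeq (GRCm38.p6, the mm10 assembly) was found for 66 members, which have 71 promoters in all. Each promoter was searched on both strands, from 250 bases before to 50 bases after the start, for 4 motifs of factors known to act on respiratory chain genes: NRF1 (a motif of 10 bases, seen in capitals in Sdha and Ndufb4), CCGGAAGT (ETS family, including GABP), TCAAGGTCA (ESRRA) and AAGATGGCG (YY1). The NRF1 motif was in 18 of the 71 promoters (25.4%), beside 4.60% of all 32851 promoters. The ETS motif was in 5 (7.04%, beside 3.89% of all), the ESRRA motif in 2 (2.82%, beside 0.423%) and the YY1 motif in 7 (9.86%, beside 1.40%). At least 1 of the 4 was in 28 promoters (39.4%, beside 9.65%), and in no member promoter did matches to different motifs overlap.

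The 250 bases before the start of 4 members are given here 5′ to 3′ on the strand of the gene, with matches in capitals. Ndufb5, a complex I subunit, is the only member called between genotypes, and its promoter holds no match (chr3:32736813-32737062, plus strand). Sdha, the flavoprotein of complex II, holds 3 NRF1 matches that begin 98, 55 and 10 bases before the start (chr13:74350241-74350490, minus strand). Ndufb4, in the membrane arm of complex I, holds 3 that begin 191, 79 and 22 bases before it (chr16:37654369-37654618, minus strand). Atp5h, the d subunit of the ATP synthase stalk, holds an NRF1 match 141 bases and an ETS match 39 bases before it (chr11:115419920-115420169, minus strand). GENCODE places the start of all 4 genes further upstream, inside these windows, at base 32736990 for Ndufb5, 74350280 for Sdha, 37654453 for Ndufb4 and 115419962 for Atp5h. By that annotation the last bases of each window, with the matches at 10 bases in Sdha, 79 and 22 in Ndufb4 and 39 in Atp5h, lie within the gene.
Ndufb5: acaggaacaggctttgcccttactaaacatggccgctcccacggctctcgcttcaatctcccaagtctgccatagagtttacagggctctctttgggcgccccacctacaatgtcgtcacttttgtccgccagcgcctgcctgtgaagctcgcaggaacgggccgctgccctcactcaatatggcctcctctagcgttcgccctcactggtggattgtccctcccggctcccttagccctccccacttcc
Sdha: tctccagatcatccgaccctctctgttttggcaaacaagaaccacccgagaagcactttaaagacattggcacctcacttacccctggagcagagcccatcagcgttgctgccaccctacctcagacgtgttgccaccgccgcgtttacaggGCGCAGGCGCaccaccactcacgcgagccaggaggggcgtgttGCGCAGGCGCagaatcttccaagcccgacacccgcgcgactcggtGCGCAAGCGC
Ndufb4: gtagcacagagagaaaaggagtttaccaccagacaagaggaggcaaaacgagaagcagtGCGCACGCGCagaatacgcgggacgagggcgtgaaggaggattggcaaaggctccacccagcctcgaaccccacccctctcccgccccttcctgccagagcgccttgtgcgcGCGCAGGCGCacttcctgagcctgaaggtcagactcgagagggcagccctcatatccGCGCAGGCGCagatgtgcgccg
Atp5h: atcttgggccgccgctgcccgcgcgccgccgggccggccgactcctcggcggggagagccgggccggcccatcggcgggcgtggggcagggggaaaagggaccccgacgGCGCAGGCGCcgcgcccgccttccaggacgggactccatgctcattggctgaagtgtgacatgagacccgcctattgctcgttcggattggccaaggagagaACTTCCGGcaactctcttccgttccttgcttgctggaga

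The motif shares describe the letters of these windows and say nothing of binding. By motif, the median log2 fold change was -0.02 in the 17 tested members with an NRF1 match and -0.02 in the 47 tested members with a promoter but no match. For YY1 the medians were -0.06 with (7 members) and -0.01 without (57). For the ETS motif they were -0.03 with (5) and -0.02 without (59), and for ESRRA -0.06 with (2) and -0.02 without (62). No difference between these medians was tested.

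Nuclear respiratory chain genes differed little between genotypes. Of 76 tested members 1 was called lower in Opa1cKO and none higher, which is 1.32%, while 10.2% of the 15229 genes tested were called (5.1% higher and 5.13% lower; edgeR's quasi-likelihood test, adjusted p below 0.05). At an unadjusted p below 0.05 there were 5 members, 3 higher and 2 lower, or 6.58% beside 25.2% of all genes. The median log2 fold change was -0.01 over the members and 0.01 over all genes tested, with 33 members above 0 and 43 below. The furthest members stood at -0.32 and 0.39 on the log2 scale, so no fitted value exceeded 1.31-fold. Without the 4 libraries of contradicted sex no member was called, beside 188 higher and 137 lower of the 15674 genes tested. The medians by complex lay lower, from -0.21 to -0.14, in a fit whose genotype term rests on WT 1, 2 and 3 against Opa1cKO 5 and 6. In whole-tissue RNA, fewer cells of a type and less RNA per cell cannot be told apart.

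The precision behind these values can be read from the SE, with a median of 0.129 over the members and 0.142 over all genes tested. Whether an interval lies within 1.5-fold depends on the size of the change as well. The median absolute log2 fold change was 0.084 over the members and 0.184 over all genes. For 70 of the 76 members (92.1%) the 95% interval of the fold change lay within 1.5-fold in either direction, beside 55.2% of all genes tested. The 6 whose intervals reached further were Cycs, Cox8b, Ndufs7, Uqcr11, Uqcrq and Atp5k. In no member did the WT and Opa1cKO ranges of CPM fail to overlap, which 6.41% of all genes did. On simulated counts of the same size, edgeR recovered 12% of genes changed 1.3-fold and 34% of those changed 1.5-fold. There 200 of 15229 genes were changed, drawn at random over all levels, while 1558 genes were called in the data. These shares are therefore not the power for the members.

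**Figure D1:**
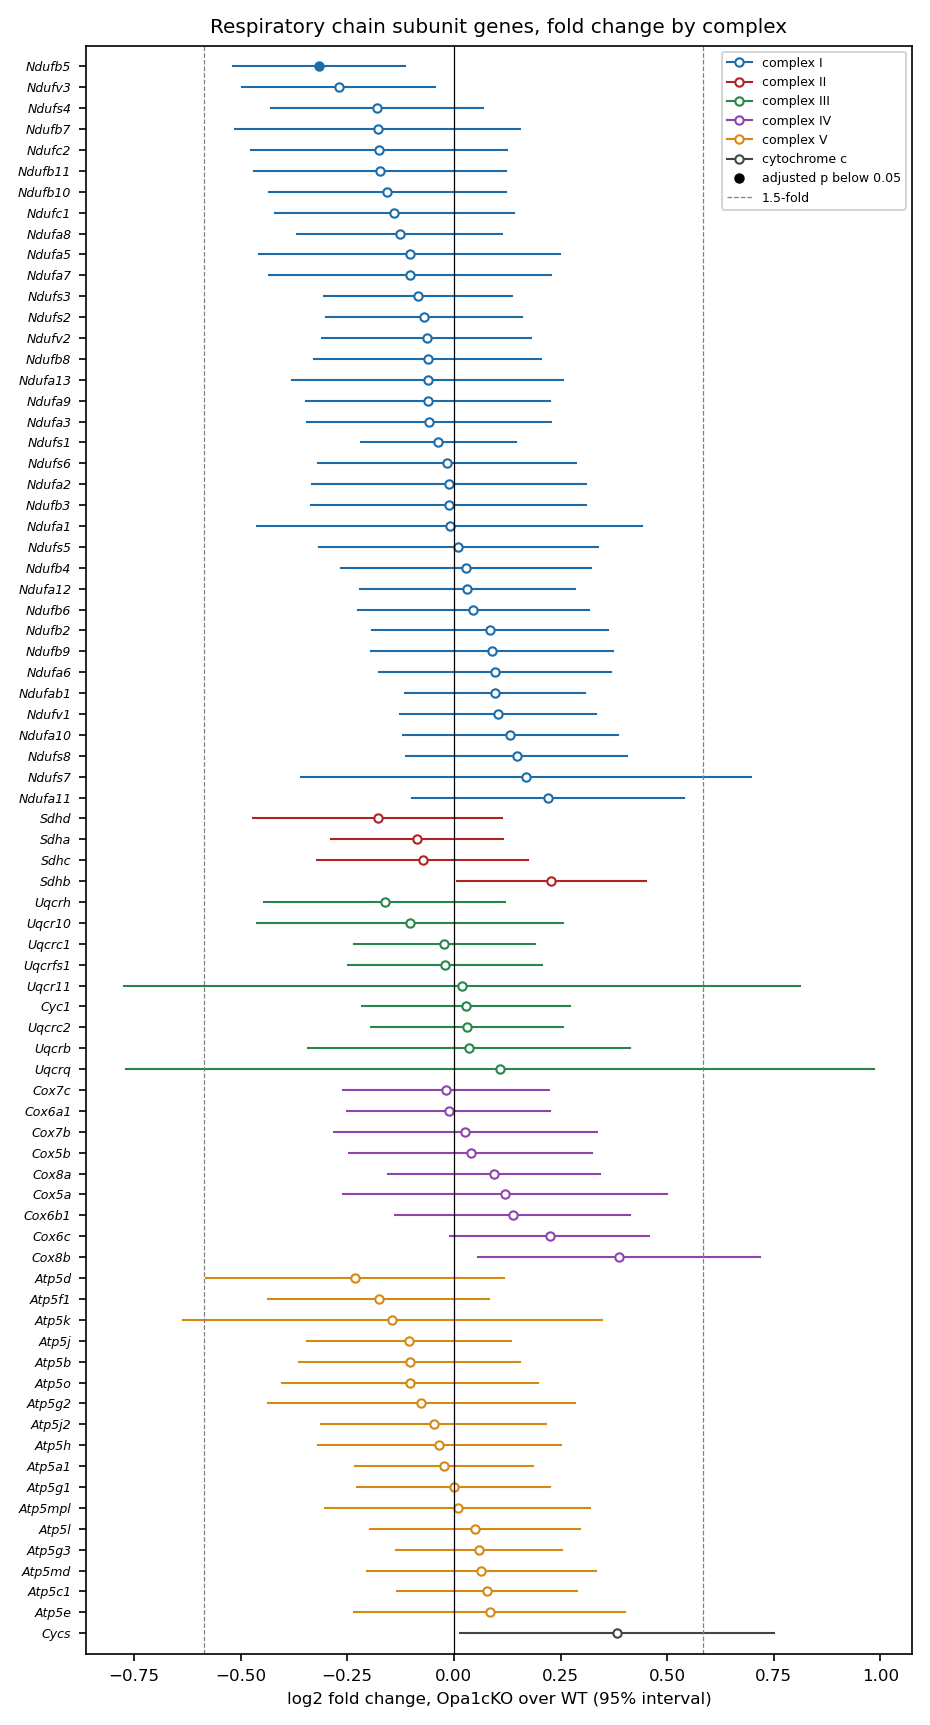
Log2 fold change of Opa1cKO over WT for each of the 76 tested members (points), with its 95% interval (lines), grouped and coloured by complex. Dashed lines mark 1.5-fold, the filled point is Ndufb5, the only member called, and the points run from -0.32 to 0.39.

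Summed over each complex, the levels of the genotypes overlapped. The summed TPM was 2897 ± 244 in WT and 2932 ± 261 in Opa1cKO for complex I (SD, n = 6 each here and in the next sentences). It was 501 ± 39.9 and 485 ± 56.9 for complex II, 1013 ± 108 and 1051 ± 110 for complex III, 1218 ± 117 and 1339.5 ± 141 for complex IV, and 2053 ± 170 and 2026 ± 154 for complex V. Over all members the sum was 7696 ± 624.6 and 7852.5 ± 628, and the members held 0.777% of all TPM. By counts they took 0.309% ± 0.0325 of each WT library and 0.310% ± 0.0317 of each Opa1cKO library. The highest mean levels over the 12 libraries were those of Atp5a1 (467 TPM), Cox6b1 (416), Atp5b (345) and Ndufa8 (327), and the lowest among tested members that of Ndufb2 (6.88).

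Complex I, which oxidises NADH, had 36 tested members with a median log2 fold change of -0.05, 13 above 0 and 23 below. Its 7 core subunits, among them the carriers of the flavin and the iron-sulfur clusters, had a median of -0.04 and none was called. The 16 members of the peripheral arm, which reaches into the matrix, had a median of -0.05 with none called. The 19 members of the membrane arm had a median of -0.06, and 1 of them, Ndufb5, was called lower. Ndufab1 was counted in neither arm.

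Ndufb5 (ENSMUSG00000027673, chr3:32736990-32751566, plus strand) encodes a supernumerary subunit of the membrane arm. Its level was 29.6 to 39.5 CPM in WT, with a median of 35.1, and 23.5 to 32.7 CPM in Opa1cKO, with a median of 28.7. It fell by 0.32 on the log2 scale (SE 0.0938, adjusted p = 0.0463 by edgeR). The ranges overlapped, since WT 4 and WT 2 lay below Opa1cKO 1, and the lowest of all was Opa1cKO 6. The call was close to its threshold: it was kept in 3 of the 12 fits that left out 1 library and lost in the other 9, those without WT 1, 2, 3, 5 or 6 or without Opa1cKO 2, 4, 5 or 6. Without Opa1cKO 6 the log2 fold change was -0.25 (adjusted p = 0.183), and without the 4 libraries of contradicted sex it was -0.47 (adjusted p = 0.127). The last value rests on WT 1, 2 and 3 against Opa1cKO 5 and 6, since sex is a term of that fit.

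The next complex I members by p were not called. Ndufv3, a small subunit of the NADH-binding tip, was at 41.8 to 58.1 CPM in WT (median 44.8) and 32.6 to 43.9 CPM in Opa1cKO (median 39.4), at -0.27 on the log2 scale (SE 0.106, adjusted p = 0.123). WT 1 was highest and Opa1cKO 6 lowest, and the ranges overlapped. Ndufs4, a subunit needed for the assembly of that tip, was at 11.3 to 15.7 CPM in WT (median 14.0) and 10.3 to 14.7 CPM in Opa1cKO (median 11.3), at -0.18 on the log2 scale (SE 0.116, adjusted p = 0.359). Opa1cKO 3 was the only Opa1cKO library above the WT median of this gene. Ndufa11, a membrane arm subunit, had the highest fold change of the complex, at 0.22 (SE 0.149, adjusted p = 0.380), with 10.02 to 16.8 CPM in WT and 14.2 to 22.6 CPM in Opa1cKO. Ndufa8, with the highest TPM of the complex, stood at 338 ± 35.1 TPM in WT and 317 ± 30.5 in Opa1cKO (SD, n = 6 each). Ndufb2, with the lowest, stood at 6.47 ± 1.19 and 7.29 ± 0.541 TPM.

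Complex II oxidises succinate and is made wholly from nuclear genes. Its 4 members had a median log2 fold change of -0.08, 1 above 0 and 3 below, and none was called. Sdhb, the iron-sulfur subunit, was at 30.6 to 41.3 CPM in WT (median 32.2) and 33.9 to 43.7 CPM in Opa1cKO (median 40.5). Its log2 fold change was 0.23 (SE 0.104, adjusted p = 0.185). Of the 6 Opa1cKO libraries 5 lay above every WT library except WT 1. Sdha, the flavoprotein that binds succinate, was at 131 to 159 CPM in WT (median 143) and 124 to 173 CPM in Opa1cKO (median 131), at -0.09 on the log2 scale (SE 0.0942, adjusted p = 0.611). The membrane anchors Sdhc and Sdhd had log2 fold changes of -0.07 (SE 0.115, adjusted p = 0.739) and -0.18 (SE 0.136, adjusted p = 0.445). By TPM Sdhd was the highest of the 4, at 202 ± 25.5 in WT and 183 ± 31.1 in Opa1cKO (SD, n = 6 each), and Sdhc the lowest, at 70.8 ± 7.67 and 67.1 ± 7.88.

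Complex III passes electrons from ubiquinol to cytochrome c. Its 9 members had a median log2 fold change of 0.02 with none called. The core proteins Uqcrc1 and Uqcrc2 stood at -0.02 and 0.03 on the log2 scale, and the Rieske iron-sulfur protein Uqcrfs1 at -0.02. Cyc1, the cytochrome of the complex, had 22.6 to 32.5 CPM in WT and 24.1 to 33.8 CPM in Opa1cKO, at 0.03 on the log2 scale (SE 0.114, adjusted p = 0.910). The lowest fold change was that of Uqcrh, the hinge protein, at -0.16 (SE 0.131, adjusted p = 0.475), with 29.5 to 47.6 and 30.1 to 42.8 CPM. Uqcr10 had the highest TPM of the complex, at 201 ± 45.8 in WT and 203 ± 34.2 in Opa1cKO (SD, n = 6 each), and Uqcrq the lowest, at 30.9 ± 14.5 and 42.8 ± 23.3.

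Complex IV reduces oxygen to water. Its 9 tested members had the highest median of the complexes, 0.09 on the log2 scale, with 7 above 0 and 2 below, and none was called. Cox6c, a supernumerary subunit, was at 20.7 to 25.0 CPM in WT (median 22.7) and 23.8 to 34.4 CPM in Opa1cKO (median 25.1), at 0.22 on the log2 scale (SE 0.108, adjusted p = 0.215). Opa1cKO 3 lay far above the other libraries and the ranges overlapped. Cox6b1 had the highest TPM of the complex, 397 ± 48.0 in WT and 435 ± 61.8 in Opa1cKO (SD, n = 6 each). Cox5a had the lowest among those tested, 27.5 ± 3.75 and 30.5 ± 7.63 TPM, and a log2 fold change of 0.12 (SE 0.177, adjusted p = 0.723). Cox7c had the lowest fold change of the complex, at -0.02 (SE 0.113, adjusted p = 0.941). Cox8a, the common form of subunit 8, stood at 0.09 (SE 0.116), Cox6b1 at 0.14 (SE 0.128), Cox7b at 0.03 (SE 0.144) and Cox6a1 at -0.01 (SE 0.111) on the log2 scale.

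Cox8b, the form of subunit 8 known from heart and skeletal muscle, had the furthest fold change of all members. It was at 4.74 to 7.57 CPM in WT (median 6.46) and 7.02 to 10.7 CPM in Opa1cKO (median 8.12). Opa1cKO 3 was highest and WT 4 lowest, and WT 1 and WT 5 lay above the lowest Opa1cKO library, Opa1cKO 4. The log2 fold change of 0.39 (SE 0.154) was not called by edgeR on counts (adjusted p = 0.130). With the authors' TPM on the log2(TPM + 1) scale it was 0.41 and was called by limma (adjusted p = 0.0479). By TPM, Cox8b was highest in WT 5 (90.7) among WT libraries and in Opa1cKO 3 (132) among Opa1cKO libraries. The summed muscle markers were highest in WT 5 (66.8 TPM) and Opa1cKO 4 (62.0 TPM) and stood at 6.92 TPM in Opa1cKO 3. Their part in the Cox8b values was not tested.

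Shares of alternative subunits were compared by TPM, with 5 shares tested by a two-sided exact permutation test over the 6 and 6 libraries. Cox8b made up 24.9% to 30.7% of Cox8 in WT (27.9% ± 2.28, SD, n = 6) and 27.4% to 34.7% in Opa1cKO (32.0% ± 2.89, SD, n = 6). The difference of 4.10 percentage points had an exact p of 0.0260, or 0.130 after Benjamini-Hochberg adjustment over the 5 shares, and so did not pass. Without Opa1cKO 4 the difference was 5.03 points and passed (adjusted exact p = 0.0433). Cox8c added no read, so Cox8a was the rest. Cox6b2, the form known from testis, was at 0.195% ± 0.194 of Cox6b in WT and 0.206% ± 0.0787 in Opa1cKO (SD, n = 6 each), with an adjusted exact p of 0.918. Cox6a2 and Cox7b2 rested on 1 read each, so Cox6a1 and Cox7b stood for their families.

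Cycs, the electron carrier between complexes III and IV, was at 8.09 to 14.0 CPM in WT (median 10.6) and 11.3 to 19.0 CPM in Opa1cKO (median 13.4). Opa1cKO 3 was highest and WT 3 lowest, and the ranges overlapped. The log2 fold change was 0.38 (SE 0.172) and was not called (adjusted p = 0.181 by edgeR).

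**Figure D2:**
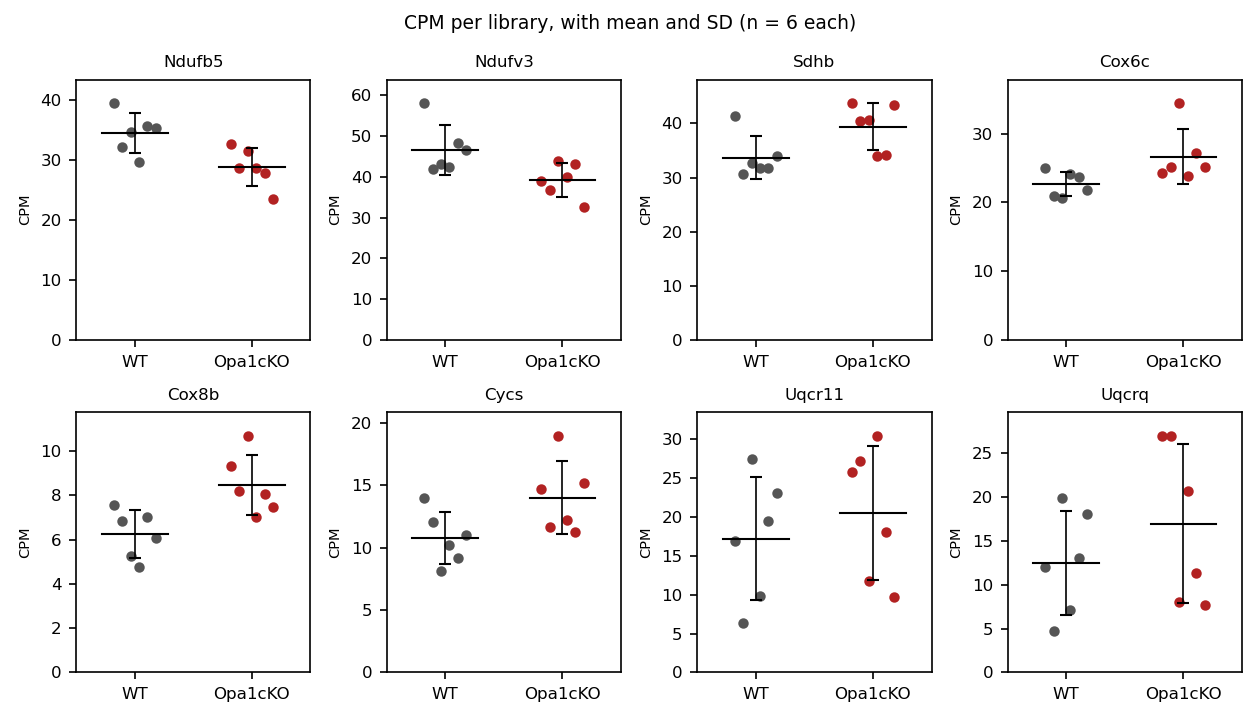
CPM in each library (points) for 8 members, with the mean and SD (lines, n = 6 per genotype), and a linear axis from 0. The genotypes overlap in all 8, and the points of Uqcr11 and Uqcrq spread widely within each genotype.

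Complex V had 17 tested members with a median log2 fold change of -0.03, 6 above 0 and 11 below, and none was called. In the F1 head, which makes ATP, the 5 members had a median of -0.02. The catalytic subunit Atp5b was at 300.3 to 399 CPM in WT (median 309.9) and 271 to 399.6 CPM in Opa1cKO (median 294), at -0.10 on the log2 scale (SE 0.121, adjusted p = 0.640). Its partner Atp5a1, the member with the most TPM, was at 291 to 391.7 CPM in WT (median 309.6) and 289 to 366 CPM in Opa1cKO (median 310.1), at -0.02 (SE 0.0973, adjusted p = 0.917). In both genes 1 library of each genotype, WT 1 and Opa1cKO 3, stood above the rest; in Atp5b WT 2 stood high as well. Atp5d, the delta subunit of the central stalk, had the lowest fold change of the complex at -0.23 (SE 0.162, adjusted p = 0.401), with 34.1 to 59.3 CPM in WT and 30.2 to 48.7 in Opa1cKO. Atp5e, the epsilon subunit of that stalk, had the highest, at 0.08 (SE 0.148, adjusted p = 0.773).

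The 4 members of the peripheral stalk, which holds the head still, had log2 fold changes from -0.18 to -0.03 with a median of -0.10, and none was called. The lowest was Atp5f1 (subunit b), at 69.1 to 98.6 CPM in WT (median 73.8) and 54.8 to 82.3 CPM in Opa1cKO (median 70.5), with an adjusted p of 0.390 by edgeR. WT 1 was the highest library in this gene and Opa1cKO 6 the lowest. Atp5j (coupling factor 6), another stalk member, stood at -0.11 on the log2 scale (SE 0.111, adjusted p = 0.598). The 5 other membrane subunits had a median of 0.01. Among them Atp5j2 (subunit f) had the lowest TPM of the complex, 16.4 ± 2.17 in WT and 16.3 ± 1.38 in Opa1cKO (SD, n = 6 each).

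The c ring, the rotor of ATP synthase, is made from a subunit that 3 genes encode. By TPM, Atp5g2 gave 49.6% ± 3.61 of their sum in WT and 47.7% ± 4.40 in Opa1cKO (SD, n = 6 each). Atp5g3 gave 37.7% ± 3.26 and 39.4% ± 3.13, and Atp5g1 gave 12.8% ± 0.709 and 12.9% ± 1.35. The order Atp5g2, Atp5g3, Atp5g1 held in both genotypes by the mean, but in Opa1cKO 3 Atp5g3 (44.3%) was above Atp5g2 (40.9%). The adjusted exact p was 0.718 for Atp5g2 and for Atp5g3 and 0.918 for Atp5g1. On the CPM scale the log2 fold changes were -0.08 (SE 0.167), 0.06 (SE 0.0905) and 0.00 for Atp5g2, Atp5g3 and Atp5g1.

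The members varied more from library to library than between genotypes. As the median deviation of the tested members from their WT mean log2 CPM, WT 1 stood at 0.29 and Opa1cKO 3 at 0.25, WT 4 at -0.18 and Opa1cKO 6 at -0.18, and the other 8 libraries between -0.06 and 0.04. The extremes came from both genotypes, and the genotype means were 0.00 in WT and 0.00 in Opa1cKO. These 4 libraries were the 2 highest and the 2 lowest in complexes I and V but not in the others. In complex II the lowest were Opa1cKO 4 and Opa1cKO 2 (both -0.21), with WT 4 at -0.04. In complex III WT 6 (0.11) stood just above Opa1cKO 3 (0.10), and in complex IV Opa1cKO 3 reached 0.57 while Opa1cKO 6 stood at 0.01.

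**Figure D3:**
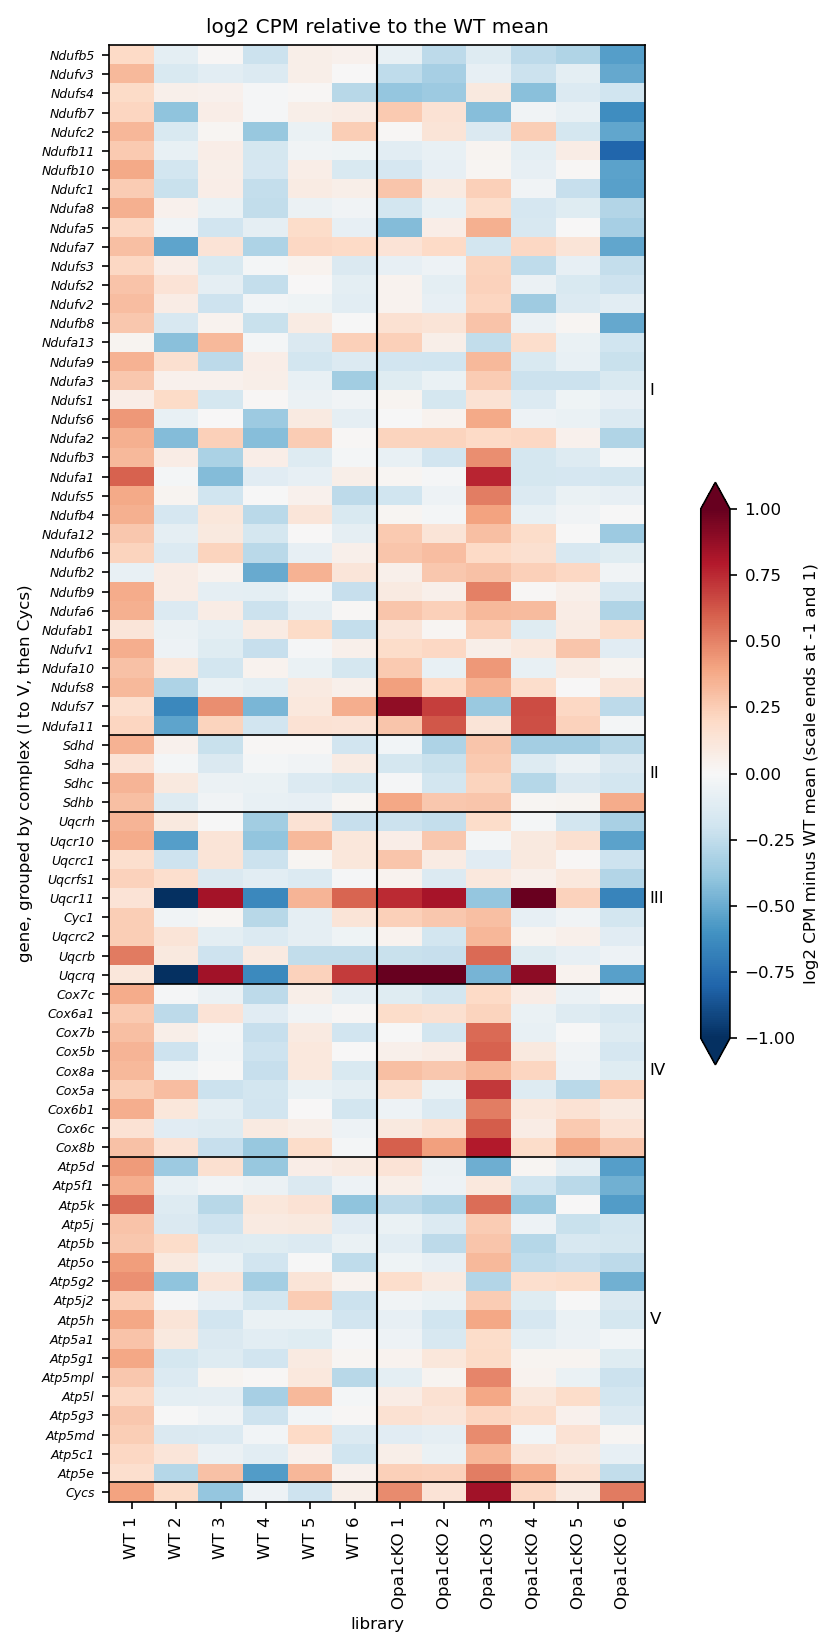
Log2 CPM of each tested member (lines of the grid, grouped by complex) in each library (columns), minus that gene's WT mean. Most members are high in WT 1 and Opa1cKO 3 and low in Opa1cKO 6, while Uqcr11, Uqcrq and Ndufs7 follow another pattern, high in WT 3, WT 6 and Opa1cKO 1, 2 and 4.

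Length and GC content were set beside these deviations. The members are short, with a median summed exon length of 1815 bases beside 4094 for all genes tested, and 44 of the 76 (57.9%) are under 2000 bases, beside 18.6% of all. For length and GC the deviation of a gene was taken from its mean over all libraries of both genotypes, not from its WT mean. Over 13043 genes it correlated with exon length by a Spearman rho of -0.32 in WT 1 and 0.26 in Opa1cKO 6. In the others rho lay between -0.10 and 0.10. In the other 2 of the 4 extreme libraries rho was -0.09 (Opa1cKO 3) and 0.10 (WT 4), beside -0.10 in Opa1cKO 1 and -0.09 in Opa1cKO 2. The part that length plays in the deviations of the members was not tested. By the same deviation, genes under 2000 bases had a median of 0.21 in WT 1 and -0.17 in Opa1cKO 6, and of 0.06 in Opa1cKO 3 and -0.05 in WT 4. Correlation with GC content ran from -0.48 in WT 2 to 0.40 in Opa1cKO 2. With each library's trend on length and GC removed, a setting chosen after the data were seen, the median log2 fold changes were 0.00, -0.09, 0.04, 0.14 and -0.04 for complexes I to V. In that fit 2 members were called, both lower (Ndufb5 and Ndufv3), beside 986 higher and 1098 lower of 15219 genes. Without WT 1 and Opa1cKO 3 the medians were -0.03, -0.10, 0.02, 0.05 and -0.02. No member was called there, beside 746 higher and 822 lower of 15270 genes.

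**Figure D4:**
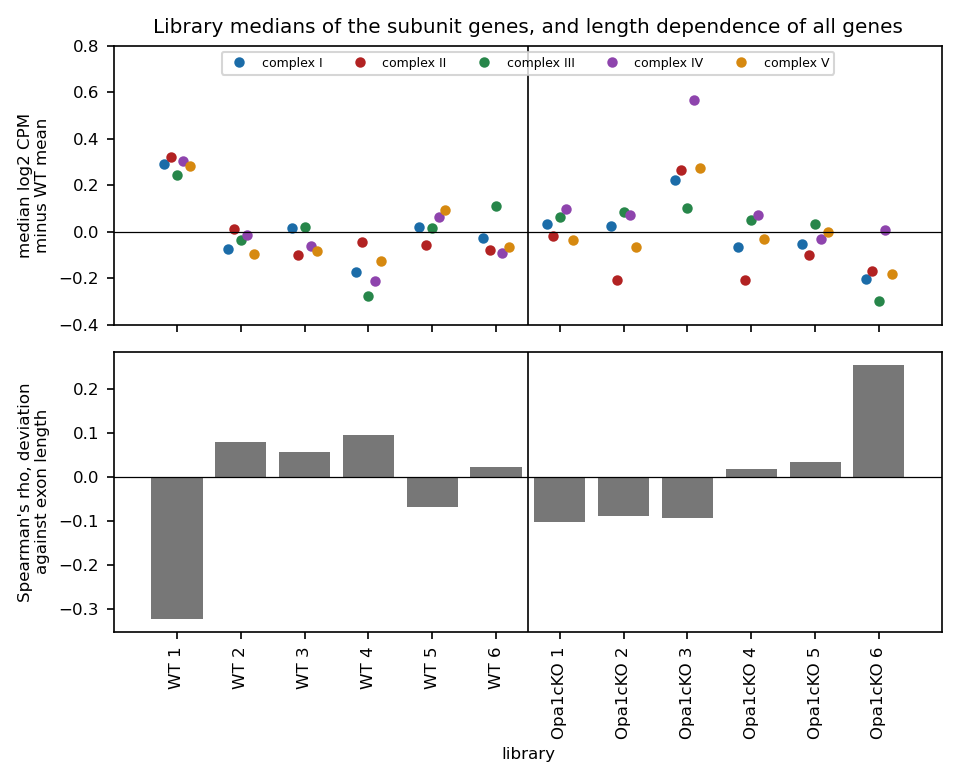
Top, median deviation of log2 CPM from the WT mean for the members of each complex (points) in each library. Bottom, Spearman's rho over 13043 genes between exon length and the deviation of each gene from its mean over all libraries (bars from 0). WT 1 has the highest medians in WT and the lowest rho, and Opa1cKO 6 has the highest rho.

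The 3 members Uqcrq, Uqcr11 and Ndufs7 had the widest spread within a genotype, and the last 2 were singled out after their values were seen. Uqcrq, a small subunit of complex III, ran from 4.73 to 19.9 CPM in WT (median 12.5) and from 7.63 to 27.0 CPM in Opa1cKO (median 16.1). Uqcr11, another small subunit of that complex, ran from 6.41 to 27.4 CPM in WT (median 18.2) and from 9.71 to 30.4 CPM in Opa1cKO (median 21.9). Ndufs7, a core iron-sulfur subunit of complex I, ran from 9.58 to 20.6 CPM in WT (median 16.4) and from 11.57 to 27.6 CPM in Opa1cKO (median 20.4). All 3 were lowest in WT 2, WT 4, Opa1cKO 3 and Opa1cKO 6, the 4 libraries in which the correlation with GC content was most negative (-0.48, -0.35, -0.27 and -0.16). Their log2 fold changes were 0.11 (SE 0.402), 0.02 (SE 0.363) and 0.17 (SE 0.244), and none was called, with adjusted p of 0.904, 0.981 and 0.717 by edgeR. Within a genotype their SD on the log2 CPM scale was 0.82, 0.74 and 0.49, beside a median of 0.21 over the 76 members. Ndufs7 (chr10:80249121-80256794) and Uqcr11 (chr10:80402997-80406830) are near each other on chromosome 10, and Atp5d (chr10:80138632-80145818) lies beside them, while Uqcrq is on chromosome 11 (chr11:53427922-53430831). The share of GC in their exons was 51.7% in Uqcrq, 59.2% in Uqcr11 and 58.8% in Ndufs7, beside a median of 50.9% over the members. Across the members the SD was lower in longer genes, with a Spearman rho of -0.52 over 76 genes that share the same libraries.

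Partner subunits made from mitochondrial DNA were set against the nuclear members of the same complex, library by library. Counts of mt-Nd1 plus mt-Nd6, both complex I subunits, were 68.5 to 193 per 1000 counts of the nuclear complex I members in WT, with a mean of 135 ± 47.7 (SD, n = 6). In Opa1cKO they were 5.89 to 15.2, with a mean of 9.95 ± 3.69 (SD, n = 6), so the mean ratio was 13.6-fold lower. For mt-Cytb, the mitochondrially made subunit of complex III, the ratio to nuclear complex III counts was 234 to 684 in WT (484 ± 161, SD, n = 6) and 14.0 to 35.9 in Opa1cKO (25.3 ± 9.52, SD, n = 6), or 19.2-fold lower. The genotypes did not overlap: the lowest WT library stood 4.49-fold and 6.51-fold above the highest Opa1cKO library. WT 1 had the lowest ratio in WT in both cases. The nuclear counts in the denominator differed little between genotypes, as given above, and no p is given for a ratio to a sum over members.

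**Figure D5:**
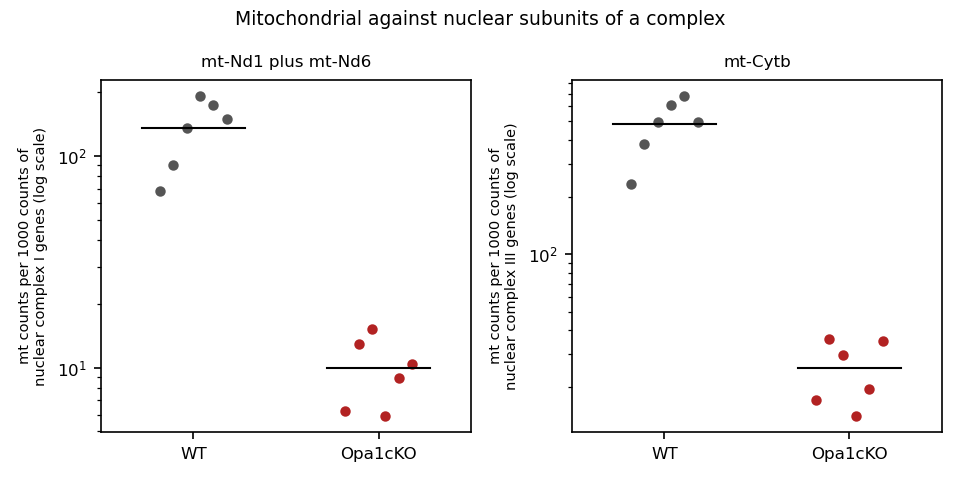
Counts of mt-Nd1 plus mt-Nd6 per 1000 counts of nuclear complex I members (left) and of mt-Cytb per 1000 counts of nuclear complex III members (right), on log axes, with 1 point per library and the mean as a line. All Opa1cKO points (5.89 to 15.2 and 14.0 to 35.9) lie below all WT points (68.5 to 193 and 234 to 684).

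Other genes of the chain were counted in 3 lists. Of the 13 subunits encoded in mitochondrial DNA 9 were tested, and all 9 were called lower with a median log2 fold change of -4.30. Their levels were uneven: the WT mean was 1389 CPM for mt-Co1 but 1.94 for mt-Co2 and 0.978 for mt-Co3. The last 2 were near the floor in Opa1cKO, at 0.0434 and 0.0590 CPM. The cause of this unevenness was not tested. The genes mt-Nd1, mt-Nd6 and mt-Cytb, used in the ratios above, were chosen because they have no annotated nuclear copy. Of 7 alternative or left-out nuclear subunits 1 was called: Ndufa4l2, a paralogue of the complex IV subunit Ndufa4 that is known as a hypoxia-responsive gene, fell from 904 ± 178 CPM in WT to 428 ± 97.8 CPM in Opa1cKO (SD, n = 6 each), by 1.18 on the log2 scale (SE 0.173, adjusted p = 0.000944). Ndufa4 itself stood at 12.4 ± 1.78 and 17.3 ± 4.24 CPM (adjusted p = 0.101). Of the complex IV subunits that the symbol rule left out, Cox4i1 stood at 0.03 and Cox4i2, the form known for low oxygen, at -0.28 on the log2 scale (adjusted p = 0.912 and 0.378).

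Of 47 tested assembly factors, proteins that help build the complexes without being part of them, 3 were called higher and 1 lower. Foxred1, a complex I assembly factor, rose by 0.34 (SE 0.0876, adjusted p = 0.0248), from 25.3 ± 2.41 to 31.3 ± 2.24 CPM. Cox15, which makes the heme a of complex IV, rose by 0.30 (SE 0.0805, adjusted p = 0.0300), and Ttc19, a complex III factor, by 0.34 (SE 0.1003, adjusted p = 0.0450). Coa5, a complex IV assembly factor, fell by 0.34 on the log2 scale (SE 0.0863, adjusted p = 0.0236), from 101 ± 7.48 to 80.5 ± 7.90 CPM (SD, n = 6 each). The 4 called of 47 stand beside the 10.2% called among all genes, and the median log2 fold change of the list was -0.01.

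Sex was tested as a modifier. For the product of genotype and labelled sex edgeR called 0 of 15229 genes and so 0 members (0.0% of all), with 2 members at an unadjusted p below 0.05 (2.63%, beside 5.9% of all genes). DESeq2 called 6 genes and no member. With sex taken from the reads no gene was called, and 14 members had an unadjusted p below 0.05 (18.4%, beside 5.06% of all genes). In that fit the male WT group is 1 library, WT 4, in which the members stood low, so this count rests on it. Without the 4 libraries of contradicted sex the median log2 fold changes were -0.21, -0.19, -0.14 and -0.20 for complexes I, III, IV and V. No member was called in that fit, beside 188 higher and 137 lower of 15674 genes. In that fit WT 1, the WT library with the highest members, is 1 of 3 WT libraries, and all 3 are female. Labelled sex is a term of the fit, and the male Opa1cKO 1, 2 and 3 have no male WT library beside them. The genotype term so rests on WT 1, 2 and 3 against Opa1cKO 5 and 6. The members of Opa1cKO 6 were the lowest of the Opa1cKO libraries (-0.18). With the Y-positive libraries alone, where WT 4 is the only WT library, the medians of the same complexes were 0.27, 0.31, 0.43 and 0.22. In the Xist-positive libraries alone (5 WT and 3 Opa1cKO) the median of complex I was -0.14. By label it was -0.15 in females and 0.08 in males.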

How the data were processed

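RNA from 12 mice was sequenced after ribosomal RNA depletion with a stranded kit, from 50 ng of total RNA with 14 PCR cycles, per the labels' protocols. Reads were aligned with STAR 2.7.11b to mm10, per the submitters' processing notes, and no counter or strand setting is named in the sources used here. The deposited count table holds whole-number read counts per gene, and the authors also deposited TPM values for 32128 symbols. Exon lengths, GC content and positions came from GENCODE M21, which held 32235 of the 32285 gene identifiers, and promoters came from RefSeq. All 80 members were found in the TPM table, Atp5f1 under its RefSeq synonym Atp5pb.

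Counts were fitted with edgeR 4.0.16 (R 4.3.3), with TMM factors, a minimum count of 10, labelled sex and genotype as terms, a robust quasi-likelihood fit of all 12 libraries, with p adjusted by Benjamini-Hochberg across 15229 tested genes and called at 0.05. Shares of TPM were compared with SciPy 1.17.1 by exact permutation, whose smallest p for 6 against 6 is 0.00216. Intervals are at 95%, and library totals set the counting error only, since PCR copies are not independent molecules. No libraries looked like duplicates (pairwise chi-square per degree of freedom of 31.1 or more). On simulated counts for this comparison (15229 genes, 200 changed) edgeR recovered 12%, 34%, 70% and 78% of genes changed 1.3-fold, 1.5-fold, 2-fold and 4-fold, with 1.02% of calls false.

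Members, lists, motifs and tests were chosen with earlier results of these data known. Named with values were Opa1, every called member, in each complex the 4 members with the smallest p and those with the highest and lowest fold change and TPM, the isoform families, and up to 6 called genes in each of the 3 other lists. Cyc1, Uqcrc1, Uqcrfs1, Uqcr11 and Ndufs7 were given besides, for their role or spread. Alternatives changed the sex term, libraries, tool (DESeq2 1.42.0, limma 3.58.1), scaling, filter, unit (log2 of TPM plus 1 or 0.1) and threshold.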

Additional observations from a re-analysis of the deposited data

Results flagged for a closer look

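Of 86 groups of 6 libraries that were checked for 1 library far from the others, 13 had one, where chance gives about 1 in 20 groups (4.3 of 86). The groups share the same libraries and are not independent. They cover only the members picked by the naming rule above, the medians by complex and the isoform shares. Opa1cKO 3 stood above the other 5 Opa1cKO libraries in 7 genes. These were Atp5a1 (366 CPM, median of the others 309.8), Atp5b (399.6 CPM, others 293), Atp5j (41.3 CPM, others 31.6) and Atp5j2 (14.1 CPM, others 11.3) of ATP synthase, Cox6c (34.4 CPM, others 25.1) and Cox7b (45.8 CPM, others 29.4) of complex IV, and Sdha (173 CPM, others 130) of complex II. The median log2 deviation of complex IV from the WT mean was also far out in Opa1cKO 3 (0.57, others 0.07). Members outside the naming rule were not checked, and Opa1cKO 3 stood far above in some of them too. Ndufa1 was at 17.0 CPM there and 8.85 to 10.2 in the other Opa1cKO libraries, and Uqcrb at 47.0 and 27.2 to 30.7.

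WT 1 stood above the other WT libraries in Atp5f1 (98.6 CPM, median of the others 73.5), in Sdhb (41.3 CPM, others 31.8) and in the median log2 deviation of complex II (0.32, others -0.06). Opa1cKO 6 stood below the other Opa1cKO libraries in the median log2 deviation of complex III (-0.30, others 0.06). WT 3 stood below the other WT libraries in the share of Atp5g1 among the 3 c ring genes (11.4%, others 13.0%).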

How the results depend on the processing

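The count of members called, 1 as reported, was recomputed under 34 alternatives, of which 10 gave 1. It was 0 without a sex term, with sex as the reads show it, without the 4 libraries of contradicted sex, in labelled females or males alone, with limma-voom, with library totals alone, without a filter on low counts and at a threshold of 0.01. Some of these fits called far fewer genes of the whole table than the main fit (777 higher and 781 lower of 15229). Calls were 188 and 137 of 15674 without the contradicted libraries. They were 167 and 133 of 15798 in labelled females and 161 and 258 of 15881 in labelled males. Without a sex term they were 994 and 1037. The count of members called was 2 with TPM at either pseudocount (1 higher and 1 lower, over 75 members matched by symbol). Leaving out 1 library at a time gave 0 to 1. Of the 4 settings chosen after seeing the data, leaving out WT 1 and Opa1cKO 3 gave 0, beside 746 higher and 822 lower of 15270 genes. Removal of the length and GC trend gave 2, beside 986 higher and 1098 lower of 15219 genes. The Xist-positive libraries alone gave 1, beside 561 higher and 546 lower of 15608 genes. The Y-positive libraries hold WT 4 as the only WT library, so their count is not given. Ndufb5 was called in 12 of 32 alternatives, and with the Y-positive libraries alone its log2 fold change turned to 0.065 (adjusted p = 0.947 by edgeR). The cause was not tested.

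Median log2 fold changes moved beyond the spread of library medians in 2 of 32 alternatives. Without the libraries of contradicted sex they were -0.21, -0.19, -0.14 and -0.20 for complexes I, III, IV and V, and with the Y-positive libraries alone 0.27, 0.31, 0.43 and 0.22. With 1 library left out at a time they ran from -0.09 to 0.01 in complex I, -0.14 to -0.04 in II, -0.06 to 0.09 in III, -0.01 to 0.16 in IV and -0.10 to 0.03 in V. With 1 library left out at a time the difference in the Cox8b share ran from 3.50 to 5.03 percentage points, and passed without Opa1cKO 4 (5.03, adjusted exact p = 0.0433). Under the other alternatives it ran from 3.13 (raw counts) to 5.30 (without the libraries of contradicted sex) and did not pass. Of the 33 tested members picked by the naming rule 25 changed sign under at least 1 alternative and 8 did not. Cyc1, Uqcrc1, Uqcrfs1, Uqcr11 and Ndufs7, given for their role or spread, are not among them.

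Replicate numbers are shared by the genotypes but the labels do not tie them to a litter or a day, and same-numbered libraries deviated together by correlations of only -0.22 to 0.04. With the replicate block the count of members called was 0, beside 351 higher and 418 lower of 15229 genes. Ndufb5 stood at -0.32 in that fit (adjusted p = 0.0926 by edgeR).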
